A study of Homo sapiens with 6 samples.

Results

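The sestrins, DDIT4 with its relative DDIT4L, and the TSC genes encode proteins that restrain mTORC1, the kinase complex that drives protein synthesis and growth when nutrients are plentiful. All probes carrying the symbol SESN1, SESN2, SESN3, DDIT4, DDIT4L, TSC1 or TSC2 in the annotation of the array platform were taken, which gave 10 of the 47319 probes of the array, for 7 of its 20045 named genes. Of these, 7 probes for 5 genes passed a filter on detection and were tested, and each of these 7 was detected on every array. SESN3, DDIT4L and 1 probe of TSC2 did not pass.

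Transcripts were measured on Illumina HumanHT-12 v4 arrays in a human melanoma cell line, SK-Mel-147. There were 3 groups of 2 arrays each, all taken 48 h after transfection: cells given miR-638, cells given antagomiR-638, and mock cells. The first is a microRNA, one of the small RNAs that repress messenger RNAs by base pairing, and the study's methods give it as a mimic of the mature form. The second, given there as a hairpin inhibitor, is a chemically modified strand designed to bind the microRNA and stop it acting. For the control cells the sources give different names, which are mock transfection in the titles, NT in the column headers, a non-targeting control in the description of the series and a control antagomiR in the study's legend. They are called mock here. All groups are 1 cell line at 1 time, and whether the arrays of a group hold separate cultures is not stated in the labels, so p-values reflect only the spread between the samples at hand, and that spread may be technical. Precision is limited by there being 2 arrays a group.

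mTORC1 is switched on at the lysosome by the small GTPase RHEB and is brought there by the Rag GTPases when amino acids are present. The TSC complex of TSC1, TSC2 and TBC1D7 turns RHEB off, and the kinase AKT, activated by growth factors, inhibits TSC2. Sestrins bind the GATOR2 complex and thereby hold the Rag GTPases back, whereas DDIT4, also called REDD1, keeps the TSC complex active in hypoxia and other stress. SESN1 and SESN2 are known targets of p53, and the integrated stress response acts on SESN2 and DDIT4 through its transcription factor ATF4.

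The sequence of mature miR-638 in the reference and short stretches of the promoters of 4 members are shown. The first is the strand that the mimic stands for, and the others hold the motifs that were searched. The miRNA is encoded at chr19:10718419-10718443 on the plus strand of GRCh38.p14, and its seed, bases 2 to 8, is in capitals. In the promoter stretches, given 5′ to 3′ on the strand of the gene, the capitals mark the motif. All come from RefSeq tables of GRCh38.p14, and all 7 members had a promoter window there.
hsa-miR-638: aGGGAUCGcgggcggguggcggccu
SESN1, GC box, chr6:109095054-109095083, minus strand: agcctgccagaGGGCGGggctttttcctaa
SESN2, GC box, chr1:28259380-28259409, plus strand: gtgactccaggGGGCGGagtttcccccgcc
DDIT4, hypoxia core, chr10:72273788-72273817, plus strand: gaacgttgcttACGTGcgcccggagtccat
TSC2, C/EBP-ATF element, chr16:2047864-2047893, plus strand: gccccgtcacgTGATGCAAggatcgccggc
TSC2, E-box, chr16:2047860-2047889, plus strand: tgcggccccgtCACGTGatgcaaggatcgc

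The windows ran from 250 bases before to 50 bases after each transcript start and were read on both strands. The GC box GGGCGG was in the windows of SESN1, SESN2, DDIT4L, TSC1 and TSC2, and in 44.6% of all 27305 promoters of the table. The hypoxia core, searched as ACGTG and GCGTG, was in those of DDIT4 and TSC2 and in 48.4% of all promoters. In DDIT4 it occurred 4 times, the first base of the copy shown lying at -125 from the start. Among the members, TSC2 alone held the E-box CACGTG, found in 7.43% of all promoters, and the C/EBP-ATF element TGATGNAA, found in 3.67%. In TSC2 these stretches are the same place, since the E-box, the hypoxia core and the C/EBP-ATF element overlap around -114 to -110. No member window held the CRE TGACGTCA (1.98% of all promoters), the EGR1 motifs GCGGGGGCG and GCGTGGGCG (5.7%) or a full p53 site (0.0293%). A match is a run of letters and was not tested as a binding site.

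Between 19794 and 20890 of the 47319 probes were detected per array, and 20145 probes were kept. Of the kept probes, 15316 had 1 gene symbol, and these covered 11501 named genes. Over the kept probes, the log2 intensities of arrays correlated at 0.994 to 0.995 within a group and at 0.976 to 0.988 between groups. SOX10 and MITF, transcription factors of the melanocytic lineage, were detected on all 6 arrays, whereas the pigment genes PMEL, MLANA, TYR and TYRP1 and the marker S100B were detected on none. None of 4 endothelial markers was detected. Of the leukocyte markers, PTPRC and CD3E were detected on no array and CD14 and CD68 on all 6.

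The sestrins were the members with called differences, where called means an adjusted p of 0.01 or less, the threshold of the study's methods. With miR-638, SESN2 rose 2.93-fold over mock, and with antagomiR-638, SESN1 rose 1.78-fold over mock. Between the oligonucleotides, SESN2 was higher and SESN1 lower with miR-638. DDIT4 signals were above mock on all arrays of both treatments but missed the threshold, and no probe of TSC1 or TSC2 was called. Values below are deposited intensities, background-subtracted and with no unit. Differences are log2 differences of intensities that were corrected with a background model and normalized, which draws differences of dim probes toward 0. In RNA from a whole culture, fewer cells of a kind and less RNA per cell cannot be told apart.

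SESN2, a sestrin that senses leucine and is induced by several stresses, had signals of 83.0 and 91.2 with miR-638, 29.6 and 32.8 with antagomiR-638, and 25.9 and 13.6 in mock cells. The miR-638 arrays stood well above the other 4, and both antagomiR-638 arrays lay above the mock arrays with a small gap. In mock cells the probe was close to background, with a detection p of 0.0117 on the dimmer array. The mean signal was 87.1 ± 5.8 with miR-638, 31.2 ± 2.26 with antagomiR-638 and 19.8 ± 8.72 in mock cells (SD, n = 2 each), so that miR-638 was 4.41 times mock by the signal itself.

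The log2 difference of SESN2 was 1.55 ± 0.16 (SE; 95% interval 1.18 to 1.92) for miR-638 against mock, with an adjusted p of 0.000931 from limma. Against antagomiR-638, SESN2 was higher with miR-638 by 1.13 ± 0.16 (95% interval from 0.76 to 1.50, adjusted p = 0.00125), a fold of 2.19. The difference of antagomiR-638 from mock, 0.42 ± 0.16 (0.05 to 0.79), did not pass (adjusted p = 0.0995). It was 0.67 without mock replicate 1 (adjusted p = 0.0231) and 0.17 without mock replicate 2 (adjusted p = 0.498), not called in either fit. The order was therefore miR-638, antagomiR-638, mock, with the lower neighbours not separated by the test. The call against mock was lost without miR-638 replicate 1 (adjusted p = 0.011) or replicate 2 (0.0148), with all probes tested (0.0127), with the signals floored at 16 in place of the background model (log2 difference 2.09, adjusted p = 0.051) and in the unmoderated linear model (0.111). Over the 18 alternatives its adjusted p ran from 0.000144 to 0.111 and its log2 difference from 0.98 to 2.09, always higher with miR-638. The call against antagomiR-638 was lost without miR-638 replicate 2 (0.0135), without antagomiR-638 replicate 1 (0.0193) or replicate 2 (0.0136), with all probes tested (0.0104), with floored signals (0.0479) and in the unmoderated model (0.0815).

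**Figure D1:**
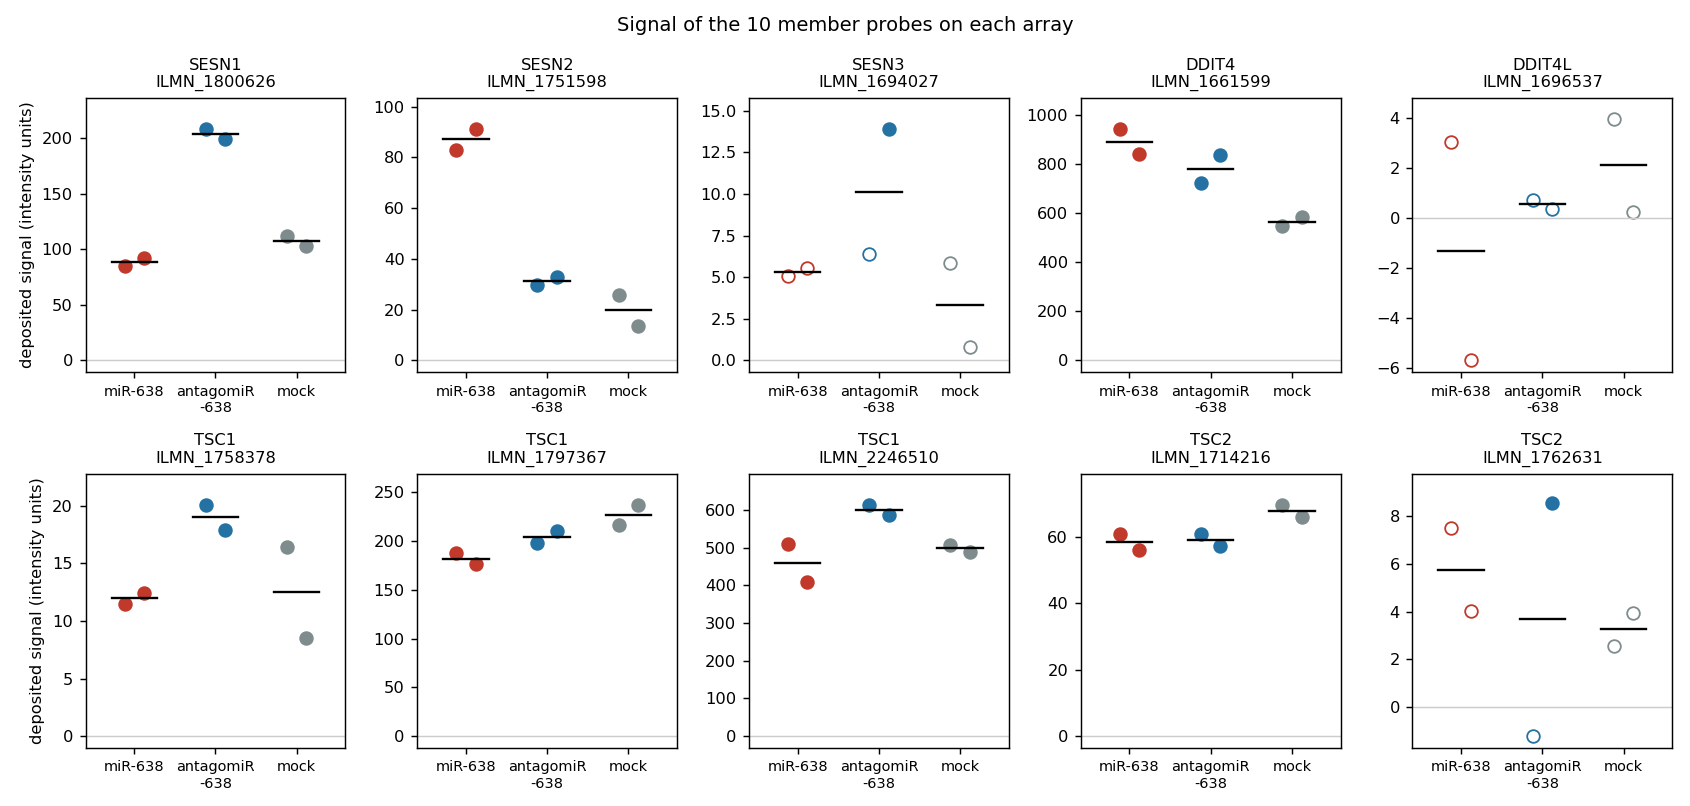
Deposited intensity of the probes of the 7 genes, 1 point per array (filled where the detection p was under 0.05), with the groups in the order miR-638, antagomiR-638 and mock and a line at each group mean. SESN2 stood at 83.0 and 91.2 with miR-638 against 25.9 and 13.6 in mock cells, and SESN1 at 208 and 199 with antagomiR-638 against 112 and 103 in mock cells.

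SESN1, the sestrin known mainly as a p53 target and a GATOR2 partner, had signals of 84.8 and 92.1 with miR-638, 208 and 199 with antagomiR-638, and 112 and 103 in mock cells. The antagomiR-638 arrays were the highest and the miR-638 arrays the lowest, and the 3 groups did not overlap. The means were 88.4 ± 5.19 with miR-638, 204 ± 6.71 with antagomiR-638 and 108 ± 6.41 in mock cells (SD, n = 2 each).

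For SESN1, antagomiR-638 exceeded mock by 0.83 ± 0.12 on the log2 scale (95% interval 0.57 to 1.09, adjusted p = 0.0014). With miR-638, SESN1 was lower than with antagomiR-638 by a log2 difference of -1.07 ± 0.12 (-1.33 to -0.81, adjusted p = 0.000263). The difference of miR-638 from mock, -0.24 ± 0.12 (-0.50 to 0.02), did not pass (adjusted p = 0.222). The call of antagomiR-638 against mock was lost without antagomiR-638 replicate 1 (0.0198) or replicate 2 (0.0144), without mock replicate 2 (0.0136), with floored signals (0.014) and in the unmoderated model (0.0395), within a range of 0.000313 to 0.0395. That between the oligonucleotides was lost only in the unmoderated model (0.027), and with 1 array left out its adjusted p was at most 0.00602. The summed signal of the leukocyte markers was also higher with antagomiR-638, at 1947 to 2248 with miR-638, 3482 to 4176 with antagomiR-638 and 1835 to 1954 in mock cells. CD68, a lysosomal protein, made up most of that sum, and the defining leukocyte markers PTPRC and CD3E were detected on no array. The summed signal of the 6 fibroblast markers was 437 to 469 with miR-638, 705.5 to 723 with antagomiR-638 and 575 to 576 in mock cells, the same order as SESN1. LUM, a matrix proteoglycan, was the 1 fibroblast marker detected on all 6 arrays and averaged 436 with miR-638, 696 with antagomiR-638 and 560.5 in mock cells, while 3 of the 6 markers, COL1A2, COL3A1 and PDGFRA, were detected on none. The part of these markers in the SESN1 result was not tested.

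SESN3, a sestrin known as a target of FOXO transcription factors, was near background. Its signals were 5.08 and 5.57 with miR-638, 6.41 and 13.9 with antagomiR-638, and 5.84 and 0.821 in mock cells. Only antagomiR-638 replicate 2 was above the detection limit, with a detection p of 0.0104, so the probe was not tested.

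DDIT4, which is induced by hypoxia, glucocorticoids and the integrated stress response, gave bright signals in every group. They were 944 and 840.1 with miR-638, 723.5 and 837 with antagomiR-638, and 548 and 584 in mock cells. All 4 arrays of cells given miR-638 or antagomiR-638 lay above both mock arrays. The miR-638 arrays lay above the antagomiR-638 arrays by a gap of a few intensity units. The log2 difference from mock was 0.64 ± 0.13 with miR-638 (95% interval 0.35 to 0.93, adjusted p = 0.0171), a fold of 1.56. With antagomiR-638 it was 0.45 ± 0.13 (0.16 to 0.73, adjusted p = 0.0354), a fold of 1.36. Neither reached the threshold of 0.01, and both comparisons use the same 2 mock arrays. Between miR-638 and antagomiR-638 the difference of 0.19 ± 0.13 (-0.10 to 0.48) did not pass (adjusted p = 0.309).

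The calls on DDIT4 depended on the variance model and the background step. With an intensity trend in limma's prior variance, both comparisons with mock were called, at adjusted p of 0.00212 for miR-638 and 0.00883 for antagomiR-638. With an offset of 50 in the background model, miR-638 against mock was called (0.00379). Over the 18 alternatives the adjusted p ran from 0.00212 to 0.134 for miR-638 and from 0.00883 to 0.185 for antagomiR-638, and both log2 differences stayed above 0, at 0.56 to 0.72 and 0.35 to 0.55.

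DDIT4L, the relative also called REDD2, was not detected on any array. Its signals were 3.07 and -5.68 with miR-638, 0.747 and 0.38 with antagomiR-638, and 3.98 and 0.255 in mock cells, with detection p between 0.152 and 0.909.

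TSC1, the scaffold subunit of the TSC complex, was read by 3 probes, each described by itself because levels of different probes are not comparable. On ILMN_2246510 the signals were 509 and 409 with miR-638, 614.5 and 588 with antagomiR-638, and 508 and 490.0 in mock cells. The antagomiR-638 arrays were above the others, while the miR-638 and mock arrays overlapped. The log2 difference was -0.12 ± 0.13 for miR-638 against mock (adjusted p = 0.603), 0.26 ± 0.13 for antagomiR-638 against mock (0.192) and -0.39 ± 0.13 for miR-638 against antagomiR-638 (0.0607).

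On ILMN_1797367 the signals of TSC1 were 188 and 176 with miR-638, 198 and 210.2 with antagomiR-638, and 216 and 237 in mock cells. Here the mock arrays were the highest and the groups did not overlap. The differences were -0.29 ± 0.12 for miR-638 against mock (95% interval -0.56 to -0.03, adjusted p = 0.15), -0.14 ± 0.12 for antagomiR-638 against mock (0.424) and -0.15 ± 0.12 for miR-638 against antagomiR-638 (0.377). The probe ILMN_1758378 was dim, at 11.5 and 12.4 with miR-638, 20.1 and 17.9 with antagomiR-638, and 16.4 and 8.49 in mock cells. Its differences were -0.02 ± 0.14, 0.30 ± 0.14 and -0.32 ± 0.14 for the same 3 comparisons, none of them called (adjusted p = 0.959, 0.166 and 0.137). For antagomiR-638 against mock the probes of TSC1 thus differed in sign.

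TSC2, the subunit that acts on RHEB, had signals of 61.0 and 56.2 with miR-638, 61.1 and 57.3 with antagomiR-638, and 69.8 and 66.1 in mock cells on ILMN_1714216. The mock arrays were the highest, and the arrays of the oligonucleotides overlapped. The differences from mock were -0.17 ± 0.11 with miR-638 (95% interval -0.43 to 0.09, adjusted p = 0.385) and -0.16 ± 0.11 with antagomiR-638 (-0.41 to 0.10, adjusted p = 0.355). Between miR-638 and antagomiR-638 the difference was -0.01 ± 0.11 (-0.27 to 0.24, adjusted p = 0.948), an interval that holds changes of either sign. Another TSC2 probe, ILMN_1762631, was above the detection limit only on antagomiR-638 replicate 2, where its signal was 8.57 with a detection p of 0.0364.

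**Figure D2:**
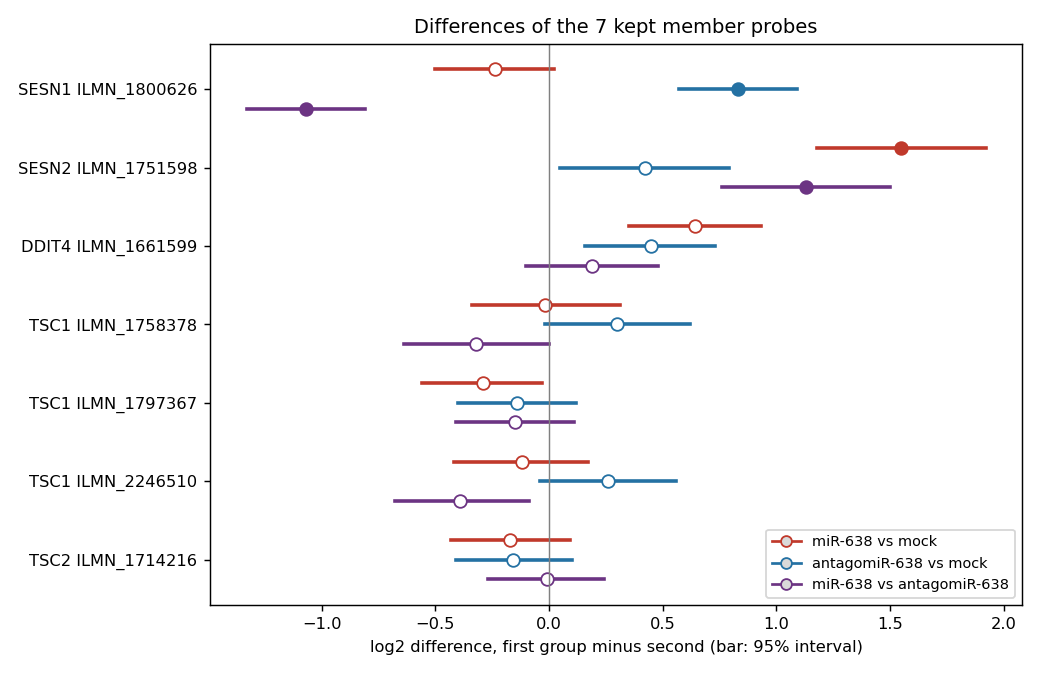
Log2 difference of each of the 7 tested probes in the 3 comparisons, with bars for the 95% interval and filled points for an adjusted p of 0.01 or less. SESN2 was called for miR-638 against mock (1.55) and against antagomiR-638 (1.13), SESN1 for antagomiR-638 against mock (0.83) and for miR-638 against antagomiR-638 (-1.07).

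Counted over the 7 tested probes, 1 was called for miR-638 against mock, 1 for antagomiR-638 against mock and 2 for miR-638 against antagomiR-638. Over all 20145 kept probes, 475 (2.36%), 1768 (8.78%) and 2552 (12.7%) were called in these comparisons. With so few members, these counts describe single genes.

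**Figure D3:**
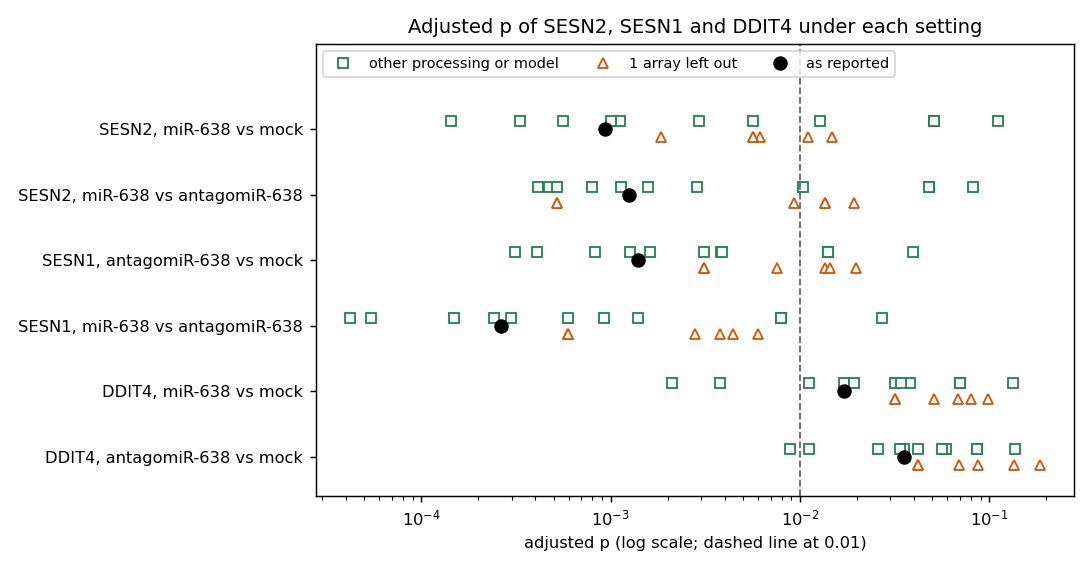
Adjusted p (log axis, dashed line at 0.01) of SESN2, SESN1 and DDIT4 as reported (black circles), under other processing or models (squares) and with 1 array left out (triangles). SESN2 for miR-638 against mock spanned 0.000144 to 0.111, on both sides of the line, and DDIT4 for miR-638 against mock spanned 0.00212 to 0.134.

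The other genes of the pathway were described through 8 lists of 106 genes, of which 98 had a named probe and 91 were kept. Of these 91, limma called 8 higher and 0 lower for miR-638 against mock, and 40 had an unadjusted p under 0.05 in either direction. Over all 11501 genes, 1.93% were called higher and 1.13% lower in that comparison. For antagomiR-638 against mock 7 were called higher and 2 lower, beside 5.83% and 4.78% of all genes. For miR-638 against antagomiR-638 11 were called higher and 8 lower, beside 7.55% and 8.28% of all genes. The median log2 difference over all genes was 0.00, 0.01 and -0.01. The lists were chosen with earlier results of these data known, so their counts describe the genes and are no test of the pathway. Where a call is said below to be lost with an array left out, that array may belong to the group not compared. Its loss leaves the difference unchanged and alters only the estimate of spread and its degrees of freedom.

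The inducers of the members formed a list, written from general knowledge, of transcription factors linked to sestrin or DDIT4 genes. Whether each of them acts on these genes, and in which direction, was not tested here. For miR-638 against mock 3 of its 14 kept genes were called higher and none lower, with a median log2 difference of 0.33. At an unadjusted p under 0.05, which 5149 of all 20145 kept probes reached, there were 8 in either direction. Of these, EPAS1 (-0.57, adjusted p = 0.0399) and HIF1A (-0.42, adjusted p = 0.074) were lower and the rest were higher. The other kept probes of HIF1A gave -0.45 and -0.83. EGR1, an immediate-early factor, had signals of 1530.1 and 904 with miR-638 against 19.1 and 17.2 in mock cells, a log2 difference of 5.13 ± 0.21 (adjusted p = 1.93e-05). MYC, which drives growth genes, had 937 and 926 with miR-638 against 225 and 177 in mock cells, a log2 difference of 2.13 (adjusted p = 0.000131), and its other kept probe gave 1.82. DDIT3, the stress-response factor also called CHOP, had 428 and 426 with miR-638 against 89.7 and 99.2 in mock cells, a log2 difference of 2.01 ± 0.13 (adjusted p = 0.000131). All 3 stayed called whichever array was left out, with adjusted p of at most 0.00317.

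With antagomiR-638, 1 inducer was called higher than mock, with a list median of -0.08. This was FOXO4, a forkhead factor held back by AKT, at 116 and 89.7 with antagomiR-638 against 52.9 and 54.8 in mock cells, a log2 difference of 0.76 (adjusted p = 0.00435). It lost its call when any of 4 arrays was left out, with an adjusted p of up to 0.0444 without antagomiR-638 replicate 1. EGR1 (0.82, adjusted p = 0.0241) and DDIT3 (0.49, adjusted p = 0.0242) were above mock with antagomiR-638 but not called. MYC gave -0.32 (adjusted p = 0.133), and its other kept probe gave -0.91. For miR-638 against antagomiR-638, 5 inducers were called higher and 1 lower, with a median of 0.29. The largest were EGR1 (4.31, adjusted p = 9.56e-06), MYC (2.45, adjusted p = 1.46e-05) and DDIT3 (1.51, adjusted p = 8.5e-05), which stayed called whichever array was left out. ATF4, singled out after its values were seen because it is a known activator of SESN2 and DDIT4, differed by 0.71 between miR-638 and antagomiR-638 (adjusted p = 0.00279, lost when any of 4 arrays was left out, up to 0.0271 without antagomiR-638 replicate 2), with other kept probes at 1.09 and 0.13. Against mock its difference was 0.54 with miR-638, which did not pass (adjusted p = 0.026), with other kept probes at 0.36 and 0.05. With antagomiR-638 ATF4 differed from mock by -0.17 (adjusted p = 0.355), with other kept probes at -0.73 and -0.08.

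Partners of the members and proteins tied to their turnover formed a list of 16 kept genes. Of these, 3 were called higher with miR-638 than in mock cells and none lower (median -0.08). TXNIP, an arrestin-like protein that binds thioredoxin and has been described to stabilise DDIT4, had 623 and 588 with miR-638 against 191 and 224 in mock cells. Its log2 difference was 1.48 ± 0.12 (adjusted p = 0.000471, at most 0.00719 without 1 array). TRIB3, a pseudokinase that binds AKT, had 660.1 and 681.5 with miR-638 against 309 and 380.0 in mock cells, a difference of 0.94 ± 0.13 (adjusted p = 0.00338). Its call was lost when any of 5 arrays was left out (up to 0.0314 without miR-638 replicate 2). YWHAB, a 14-3-3 protein of the family that binds phosphorylated TSC2, differed by 1.11 (adjusted p = 0.00104, lost when any of 3 arrays was left out, up to 0.0148 without miR-638 replicate 2), but its other kept probe gave 0.35.

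In the same list, 3 genes were called higher with antagomiR-638 than in mock cells and 1 was called lower. TXNIP had 945 and 1021 with antagomiR-638 against 191 and 224 in mock cells, a log2 difference of 2.16 ± 0.12 (adjusted p = 2.4e-05, at most 0.00165 without 1 array). YWHAB differed by 1.21 (adjusted p = 0.000262, at most 0.00669 without 1 array), with its other kept probe at 0.44. YWHAE, another 14-3-3 protein, was the gene called lower, by a log2 difference of -0.58 (adjusted p = 0.0077), with its other kept probe at 0.03. Its call was lost whichever of the 6 arrays was left out (up to 0.0665 without antagomiR-638 replicate 1), and it was named after its values were seen. SQSTM1, the autophagy receptor p62, which binds sestrins, had 8216 and 7835 with antagomiR-638 against 4683 and 5067 in mock cells, a difference of 0.72 ± 0.12 (adjusted p = 0.00336, lost when any of 4 arrays was left out, up to 0.0365 without antagomiR-638 replicate 1). For miR-638 against antagomiR-638, TRIB3 was higher (1.17, adjusted p = 0.000298), while SQSTM1 (-0.71, adjusted p = 0.00268) and TXNIP (-0.68, adjusted p = 0.00394) were lower. TRIB3 stayed called whichever array was left out, whereas SQSTM1 (up to 0.0289 without antagomiR-638 replicate 1) and TXNIP (up to 0.0373 without antagomiR-638 replicate 2) each lost the call when any of 4 arrays was left out.

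Among the Rag GTPases, the Ragulator that anchors them to the lysosome and other amino-acid sensors, none of 13 kept genes was called for miR-638 against mock (median -0.06). Of the 13, 7 had an unadjusted p under 0.05, beside 5149 of all 20145 kept probes. With antagomiR-638, 2 were called higher than mock and none lower (median 0.17). LAMTOR4, a Ragulator subunit, had 491 and 525 with antagomiR-638 against 279 and 277 in mock cells, a difference of 0.83 ± 0.11 (adjusted p = 0.00115, lost when any of 3 arrays was left out, up to 0.0162 without antagomiR-638 replicate 2). RRAGB, which encodes RagB, had 561 and 578 with antagomiR-638 against 375 and 356 in mock cells, a difference of 0.62 (adjusted p = 0.00577, lost when any of 4 arrays was left out, up to 0.0442 without antagomiR-638 replicate 2). For miR-638 against antagomiR-638, 3 were called lower and none higher (median -0.30). These were RRAGB (-1.18, adjusted p = 0.00016), RRAGC, which encodes RagC (-0.86, adjusted p = 0.00417), and LAMTOR4 (-0.78, adjusted p = 0.00117). RRAGB stayed called whichever array was left out, though its other kept probes gave -0.65 and -0.20. RRAGC (0.0452) and LAMTOR4 (0.0154) lost their calls without antagomiR-638 replicate 2 and without 2 further arrays each.

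**Figure D4:**
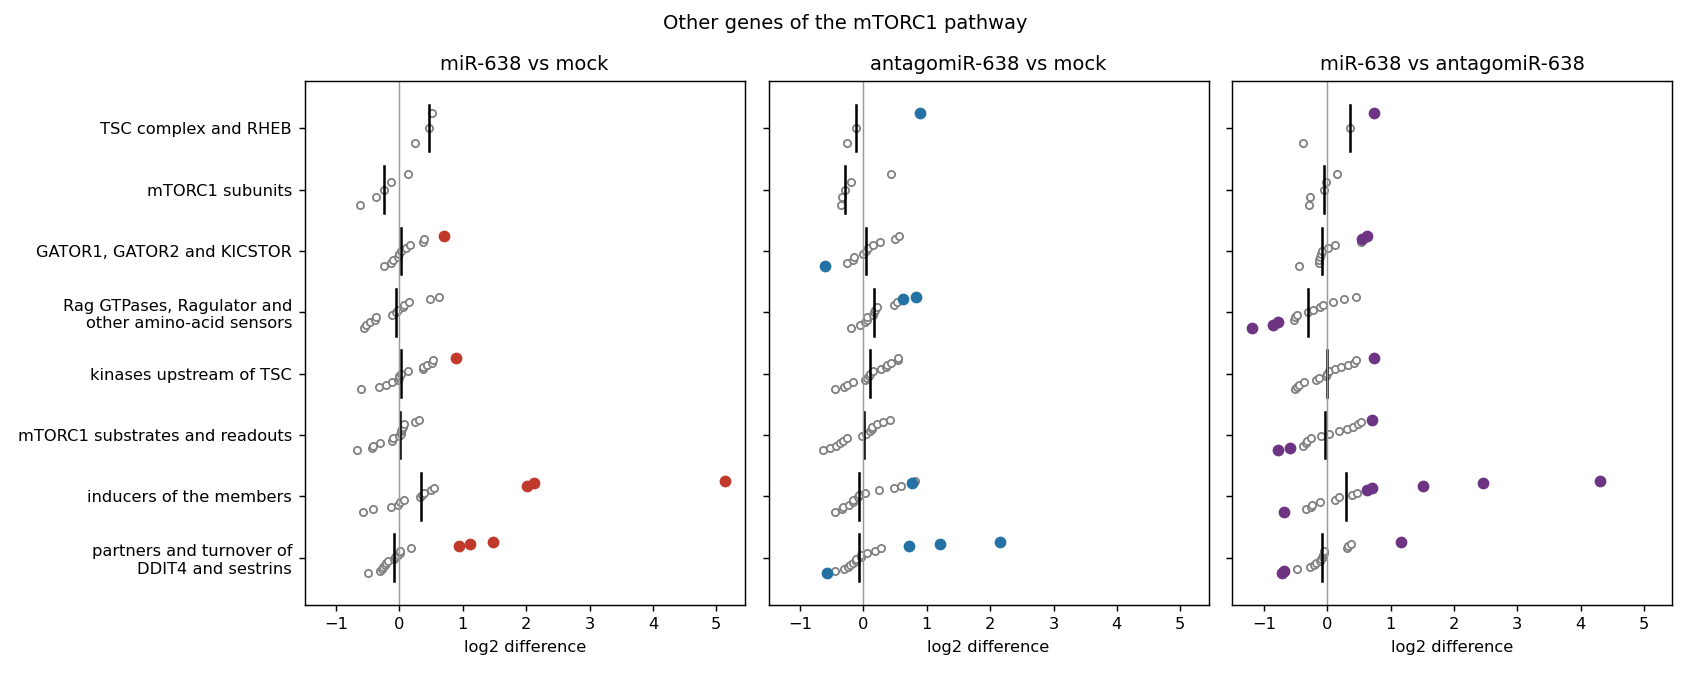
Log2 difference of each kept gene of the 8 pathway lists in the 3 comparisons, with filled points for an adjusted p of 0.01 or less and a bar at each list's median. The list of inducers had a median of 0.33 for miR-638 against mock, and that of Rag GTPases and Ragulator -0.30 for miR-638 against antagomiR-638.

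The list of the TSC complex and RHEB beside the members held 3 genes. TBC1D7, the remaining subunit of the TSC complex, had 401.5 and 372 with antagomiR-638 against 224 and 177.5 in mock cells, a difference of 0.90 ± 0.14 (adjusted p = 0.00235). The call was lost when any of 3 arrays was left out (up to 0.031 without antagomiR-638 replicate 1). RHEBL1, a relative of RHEB, was higher with miR-638 than with antagomiR-638 (0.73, adjusted p = 0.00707, lost when any of 4 arrays was left out, up to 0.0651 without antagomiR-638 replicate 1). RHEB itself gave 0.24 for miR-638 against mock (adjusted p = 0.233) and -0.11 for antagomiR-638 against mock (0.533). TBC1D7 was also higher with miR-638 than in mock cells, by 0.52, but was not called (adjusted p = 0.0498).

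GATOR1, GATOR2 and KICSTOR, the complexes through which sestrins act, had 11 kept genes. ITFG2, a KICSTOR subunit, was higher with miR-638 than in mock cells (0.70, adjusted p = 0.00827) and than with antagomiR-638 (0.55, adjusted p = 0.00867). SEH1L, a subunit of GATOR2 and of the nuclear pore, was lower with antagomiR-638 than in mock cells (-0.61, adjusted p = 0.00592) and higher with miR-638 than with antagomiR-638 (0.63, adjusted p = 0.00403). Its other kept probes gave smaller differences, -0.41 and -0.23 for antagomiR-638 against mock and 0.41 and 0.30 for miR-638 against antagomiR-638. All other kept genes of these complexes were not called. ITFG2 lost both calls whichever of the 6 arrays was left out (up to 0.057 without miR-638 replicate 2 and 0.0718 without antagomiR-638 replicate 1), and SEH1L lost its call against mock likewise (up to 0.0567 without antagomiR-638 replicate 1) and that between the oligonucleotides when any of 4 arrays was left out (up to 0.041 without antagomiR-638 replicate 1).

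Of 15 kept kinases and regulators upstream of TSC, PRKAB2, which encodes a beta subunit of AMPK, had 380 and 412 with miR-638 against 215 and 196 in mock cells, a difference of 0.89 ± 0.12 (adjusted p = 0.00264). Its call was lost whichever of the 6 arrays was left out (up to 0.0276 without miR-638 replicate 2). PRKAA2, which encodes a catalytic subunit of AMPK, was at 20.3 and 19.2 with miR-638 against 6.0 and 1.74 with antagomiR-638, where it was not detected. It was therefore at least 1.5-fold higher with miR-638 (adjusted p = 0.00236, lost when any of 4 arrays was left out, up to 0.0267 without antagomiR-638 replicate 2). For antagomiR-638 against mock limma called 0 of the 15. At an unadjusted p under 0.05, which 7093 of all 20145 kept probes reached, there were 7 of the 15. Among these was PRKAB2, which was higher with antagomiR-638 by 0.44 (adjusted p = 0.0262).

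None of the 5 kept subunits of mTORC1 was called by limma in any comparison. At an unadjusted p under 0.05 there were 2 for miR-638 against mock, 3 for antagomiR-638 against mock and 1 for miR-638 against antagomiR-638. Of all 20145 kept probes, 5149, 7093 and 7502 reached it. DEPTOR was the 1 and was among the 3. It was detected only with antagomiR-638, at 9.87 and 11.1, and passed the filter through that group alone. Its part in these counts is therefore no support for a difference. The medians were -0.24, -0.29 and -0.05. MTOR, the kinase itself, gave -0.14 with miR-638 (adjusted p = 0.49) and -0.29 with antagomiR-638 (0.109) against mock. Of 14 kept substrates and readouts, limma called 0 against mock with either oligonucleotide. At an unadjusted p under 0.05 there were 4 for miR-638 and 7 for antagomiR-638, beside 5149 and 7093 of all 20145 kept probes. Between miR-638 and antagomiR-638, RPS6KB2, an S6 kinase, was lower (-0.77, adjusted p = 0.00302), with its other kept probe at -0.22. EIF4EBP1 (0.71, adjusted p = 0.00991) was higher and EIF4EBP2 (-0.58, adjusted p = 0.00883) lower, both encoding proteins that hold back the cap-binding factor eIF4E until mTORC1 phosphorylates them. EIF4EBP1 lost its call whichever of the 6 arrays was left out (up to 0.0825 without antagomiR-638 replicate 2), EIF4EBP2 when any of 4 was (up to 0.063 without antagomiR-638 replicate 2) and RPS6KB2 when any of 3 was (up to 0.0352 without antagomiR-638 replicate 1).

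The genes with profiles most like the called members were found by the smallest root-mean-square difference between log2 values centred over the 6 arrays. For SESN1 these were CD99L2 (0.060, Pearson's r 0.992), ZBTB11-AS1 (0.064, r 0.992) and SPRY2 (0.068, r 0.995). For SESN2 they were INSC (0.142, r 0.988), TUFT1 (0.180, r 0.984) and ASGR1 (0.197, r 0.962). The closest profiles of SESN2 were thus farther from it than those of SESN1. These are descriptions over 6 arrays in 3 groups, which share the differences between groups.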

How the data were processed

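RNA of 6 samples, 2 for each of 3 groups given by the titles, was measured on bead arrays. The authors deposited intensity values with a detection p-value per probe and array, and normalized them with lumi, whose version is not given in the sources used here. The deposited intensity values are background-subtracted (26.2% lie below 0) and, although their table is named as not normalized, their sorted columns differ by at most 0.349 units, so an overall shift in brightness is no longer visible. The deposited detection p-value moves in steps of 1 in 770.

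In R 4.3.3, background was modelled by normexp (limma 3.58.1; detection p-values in place of control probes; offset 16), then intensities were quantile-normalized and put on the log2 scale. Because the values were already background-subtracted, it acts on the noise about 0. Probes were kept where at least 1 group had a detection p under 0.05 on its 2 arrays. A limma model of group means over all 6 arrays (3 residual and 6.31 prior degrees of freedom) gave two-sided p-values, adjusted over the 20145 kept probes by Benjamini-Hochberg. It was tested on simulated data drawn with its own fitted variances, which cannot show how well the model holds for these arrays. The annotation gave 1 symbol for 30112 probes, several for 8 and none for 17199, and 30073 matched a RefSeq gene by Entrez identifier. Where a gene of a list had several kept probes, the brightest stood for it.

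The members and the lists, written from general knowledge, were chosen with earlier results of these data known. Named are all members, up to 3 called genes per list and comparison with the largest differences, and for each called member the 3 genes with the nearest profile. For a probe undetected in 1 group, the fold is a lower bound, computed against the lowest detected signal of each array. Alternatives changed the background step, the table, the filter, the threshold, the variance model and the arrays, or added the replicate number as a block. Protein sequences were not used here.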

Additional observations from a re-analysis of the deposited data

How the results depend on the processing

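Of 378 member values recomputed under 18 alternatives per probe and comparison, 348 kept direction and side of the threshold, 20 lost a call, 5 gained one and 5 changed sign. The sign changes were of uncalled TSC probes: for miR-638 against mock, ILMN_1758378 of TSC1 gave 0.18 without mock replicate 1 and 0.01 without miR-638 replicate 1, within -0.21 to 0.18 with 1 array left out, and ILMN_2246510 gave 0.03 without miR-638 replicate 2, within -0.28 to 0.03. For miR-638 against antagomiR-638, TSC2 gave 0.03 without miR-638 replicate 2 and 0.02 without antagomiR-638 replicate 1, within -0.06 to 0.03. Counts of called probes are given next for miR-638 against mock (475), antagomiR-638 against mock (1768) and miR-638 against antagomiR-638 (2552), in that order. They were 26, 287 and 679 with floored signals, 26, 287 and 680 with the processed table, 1817, 4158 and 5035 at an adjusted p of 0.05, and 0, 1 and 0 in the unmoderated linear model, where 4203, 5627 and 6081 had an unadjusted p under 0.05. Leaving out 1 array gave 58 to 206, 404 to 1517 and 777 to 2338. Without the detection filter the first count was 176 and the second 1049. For miR-638 against mock alone, it was 977 with an offset of 50, 990 with an intensity trend and 206 with only the 4 arrays compared. Called member probes (1, 1 and 2) became 0, 0 and 1 with floored signals or the processed table, and 0, 0 and 0 in the unmoderated model. For miR-638 against mock they became 0 without the filter and 2 with an offset of 50, a trend or the threshold of 0.05. For antagomiR-638 against mock they became 2 with a trend or that threshold, and for miR-638 against antagomiR-638 1 without the filter. Leaving out 1 array gave 0 to 1, 0 to 1 and 1 to 2. List genes called (8, 9 and 19) were 22, 24 and 37 at the threshold of 0.05. The causes of these changes were not tested.

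The labels do not state whether samples with the same replicate number share more than that number. Their deviations from the group means were correlated over 20145 probes. The values were -0.0595 for miR-638 and antagomiR-638, -0.0686 for miR-638 and mock and -0.0539 for antagomiR-638 and mock. With 2 arrays a group, these values cannot settle what is shared. With the replicate number as a block, 280 probes were called for miR-638 against mock, 1366 for antagomiR-638 against mock and 2034 for miR-638 against antagomiR-638, and the called member probes numbered 1, 1 and 2. SESN2, near background in mock cells, is the member whose size depends most on how signals near 0 are treated, and signals at background give no order.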
